A study of Mus musculus with 12 samples.

Results

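The transcripts examined here encode the membrane-associated guanylate kinases (MAGUKs) of the postsynaptic density and the calcium/calmodulin-dependent protein kinase II (CaMKII) subunits with 1 of their inhibitors. They were chosen by symbol, as the rows of the expression table whose Ensembl identifier carries the symbol Dlg1, Dlg2, Dlg3, Dlg4, Camk2a, Camk2b, Camk2d, Camk2g or Camk2n1, and all 9 were found among 19268 genes. All 9 passed the minimum level for testing in every comparison. The RNA came from the forebrain, with the olfactory bulb removed, of male C57BL/6J mice that were wild-type (WT) or knock-out (KO), the latter lacking internal Shank3 exons on both alleles. Mice were taken at postnatal day 25 (P25, juvenile) or postnatal day 60 (P60, adult), which gave the groups P25-WT, P25-KO, P60-WT and P60-KO with 3 libraries each. Pups of all genotypes were raised together, and no litter is assigned to a library in the labels.

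The MAGUKs are scaffold proteins built from PDZ domains, an SH3 domain and a guanylate kinase-like domain. They anchor glutamate receptors below the membrane of excitatory synapses, and through proteins of the Dlgap family they are linked to Shank scaffolds. Dlg4 encodes PSD-95, Dlg2 encodes PSD-93, Dlg1 encodes SAP97 and Dlg3 encodes SAP102. SAP102 is known for its early appearance in synapse development, while PSD-95 and PSD-93 are typical of mature synapses. CaMKII is an abundant kinase of forebrain synapses that assembles from several subunits and phosphorylates receptors and scaffolds when calcium enters. The alpha (Camk2a) and beta (Camk2b) subunits are neuronal, the gamma (Camk2g) and delta (Camk2d) subunits are found in many tissues, and Camk2n1 encodes a small protein that inhibits the active kinase.

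Values are normalized counts, that is, read estimates that the authors had put on a common scale over all 12 libraries, and the sequencing depth behind them is not given in the sources used here. The column sums lay between 30568259 and 32348554. Shank3, the gene targeted, had 48.0% of the WT level in P25-KO and 50.2% in P60-KO, and every KO library lay below every WT library of its age. The forebrain marker Emx1 was present in all libraries, with 423.2 to 577.8 normalized counts at P25 and 330.7 to 446.6 at P60. Of 3 cerebellar markers (Gabra6, Pcp2 and Cbln3), the summed level was 1089 in P60-WT replicate 2 and 292.6 in P60-KO replicate 1 and between 16.07 and 51.06 in the other libraries, where Gabra6 was at most 4.40 and was often listed at 0. Results are therefore also given without these 2 libraries where this changed a call, and the part of the cerebellar signal in them was not tested otherwise. Replicates are separate samples by their titles, so the p-values measure the spread between those samples.

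The order of the levels was compared per kb of the longest coding transcript. Camk2a (ENSMUSG00000024617, chromosome 18, 60925618 to 60988152 in GRCm38, plus strand) came first, with 14626 ± 620 normalized counts per kb (SD, n = 12), and it ranked 57 of 19252 genes. It was followed by Camk2n1 (ENSMUSG00000046447, chromosome 4, 138454314 to 138460123, plus strand) with 8592 ± 1075 per kb and by Camk2b (ENSMUSG00000057897, chromosome 11, 5969644 to 6066362, minus strand) with 6516 ± 530 per kb. Dlg4 (ENSMUSG00000020886, chromosome 11, 70016942 to 70047522, plus strand) had 3890 ± 524 per kb and was the highest of the 4 MAGUKs. Camk2g (ENSMUSG00000021820, chromosome 14, 20734875 to 20794088, minus strand) had 2140 ± 99.7 per kb.

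Dlg2 (ENSMUSG00000052572, chromosome 7, 90476672 to 92449247, plus strand) had 1562 ± 113 normalized counts per kb and spans 1972.6 kb, the longest of these loci. Dlg3 (ENSMUSG00000000881, chromosome X, 100767722 to 100818410, plus strand) had 1189 ± 65.0 per kb, and Dlg1 (ENSMUSG00000022770, chromosome 16, 31663443 to 31875129, plus strand) had 782 ± 52.4 per kb. Camk2d (ENSMUSG00000053819, chromosome 3, 126596302 to 126846326, plus strand) was the lowest with 668 ± 41.4 per kb. Each gene was above the next in 12 of 12 libraries, and only the ranges of Dlg1 and Camk2d overlapped, the former running from 728.6 to 877.7 per kb and the latter from 587.1 to 730.1 per kb. Per kb of all annotated exons, Dlg3 with 1008 stood above Dlg2 with 749, and the ranges of Camk2a and Camk2n1 overlapped, so these positions depend on the length used. At most 3.37% of the 31-base words of a member (Dlg4) also occurred in transcripts of another gene. The Dlg2 locus holds 30 other annotated genes, 8 of them on the opposite strand, the use of strand in the counting is not stated, and 1.05% of the 31-base words of Dlg2 occurred in transcripts of other genes.

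**Figure D1:**
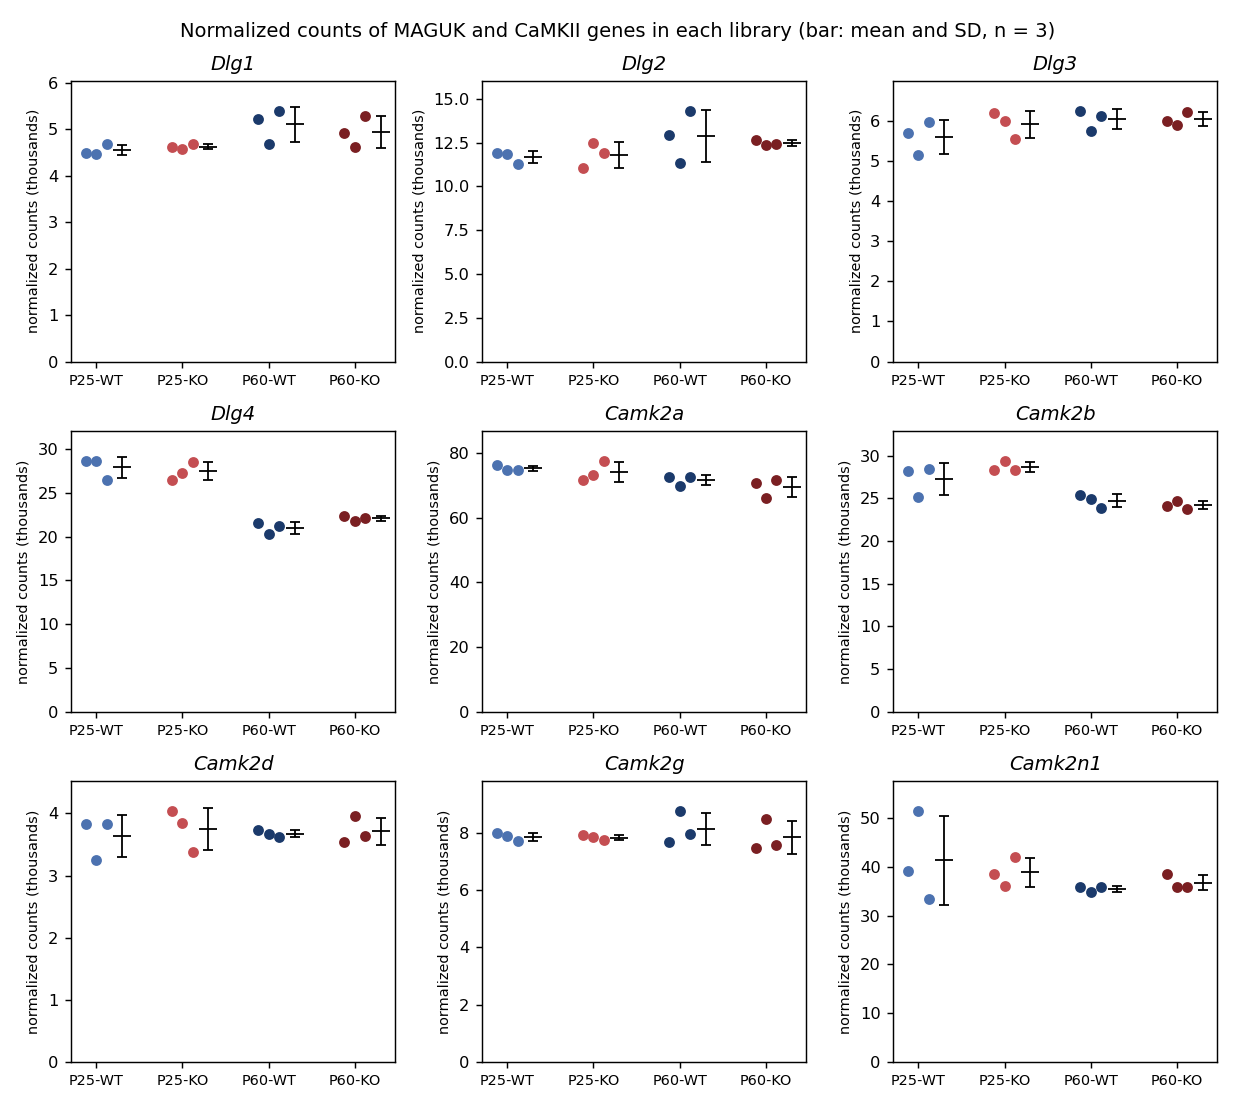
Normalized counts of the 9 genes in each of the 12 libraries, by group, with the mean and SD of 3 libraries as a bar beside the points. Every P60 point of Dlg4 lies below every P25 point, the Camk2n1 point at 51466 is P25-WT replicate 2, and WT and KO points of an age lie close together.

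Loss of Shank3 was compared first, because the MAGUKs and Shank3 belong to the same scaffold. At P25, 0 of the 9 genes passed the threshold of an adjusted p under 0.05 (limma with Benjamini-Hochberg adjustment over 17515 genes), and 0 had an unadjusted p under 0.05. Over all genes 0.00571% were called, which is Shank3 alone. That call was lost with eBayes without a trend, with the replicate block, with the length and GC trend removed, and without P25-KO replicate 1 or 2, while the log2 fold change stayed between -1.136 and -1.001. Log2 fold changes ran from -0.070 for Camk2n1 to 0.078 for Dlg3, and all 95% intervals together ran from -0.39 to 0.27. The widest interval, from -0.39 to 0.25, belonged to Camk2n1. The P25-WT libraries held 39299, 51466 and 33521 normalized counts of Camk2n1 and the P25-KO libraries 38590, 36079 and 42134. The WT values enclosed all KO values, and without the high P25-WT replicate 2 the difference turned to 0.098.

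At P60, 0 of the 9 genes were called (limma), 0 had an unadjusted p under 0.05, and 0.00568% of all genes were called, again Shank3 alone. The 95% intervals of the 9 genes together ran from -0.21 to 0.17. Dlg4 was the only member whose genotypes did not overlap, which 7.79% of all genes did at P60 and 4.76% at P25, where 0 of the 9 genes did. The P60-WT libraries held 21593, 20240 and 21218 normalized counts of Dlg4 and the P60-KO libraries 22366, 21750 and 22137. All KO values were thus higher, by a log2 fold change of 0.072 ± 0.041 (SE) with an adjusted p of 1 (limma). Without the 2 libraries with cerebellar markers the difference was 0.036. Dlg3, the MAGUK of early synapses, had 6035 ± 252 normalized counts in P60-WT and 6033 ± 170 in P60-KO (SD, n = 3).

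The genotype by age interaction, which tests whether the effect of Shank3 loss differs between the ages, was called for 0 of the 9 genes and for 0.0% of all genes (limma), with 0 and 288 genes at an unadjusted p under 0.05. The interaction terms of the 9 genes lay between -0.10 for Camk2b and 0.12 for Camk2n1 on the log2 scale, and their 95% intervals together ran from -0.28 to 0.46.

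**Figure D2:**
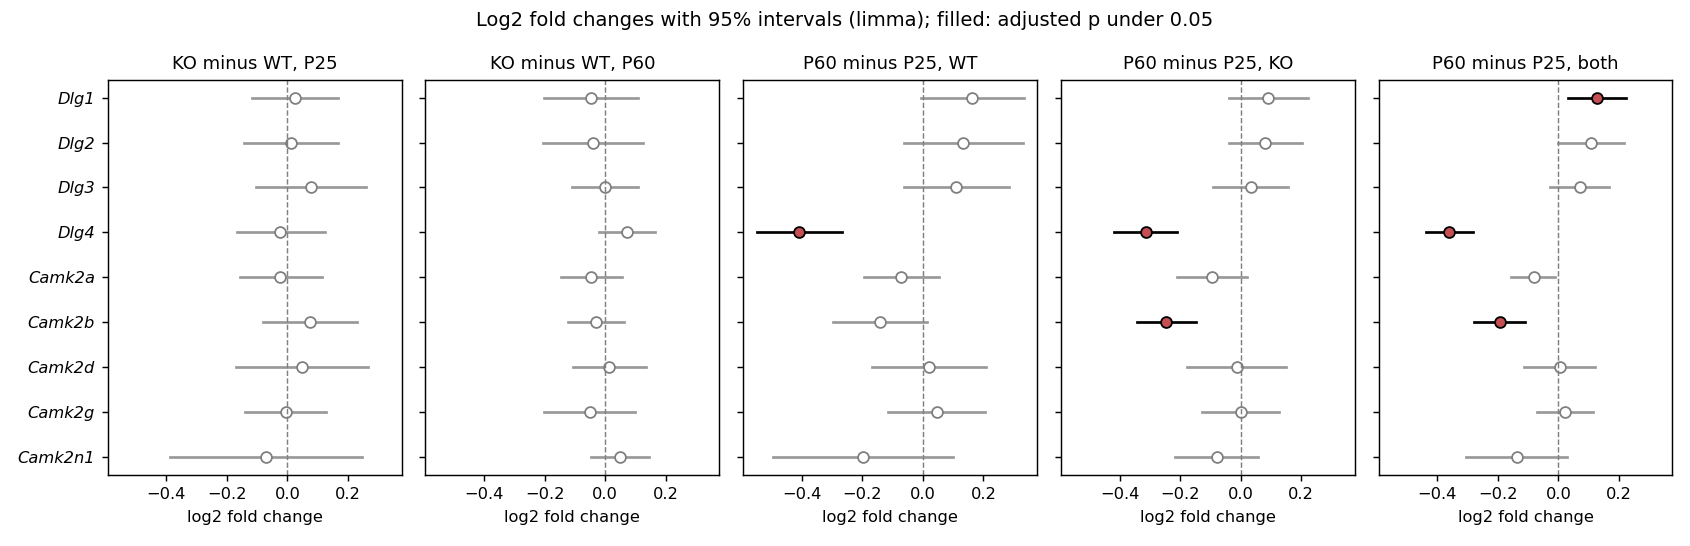
Log2 fold changes (horizontal axis) of the 9 genes (rows) in 5 comparisons, with 95% intervals from limma as lines and filled points where the adjusted p was under 0.05. In both KO minus WT panels all intervals cross 0, whereas the interval of Dlg4 lies below 0 in all 3 panels of P60 minus P25.

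More members were called between the ages, and Dlg4 had the largest change among the 9 genes. The P25-WT libraries held 28588, 28605 and 26483 normalized counts of Dlg4, and the P25-KO libraries held 26508, 27282 and 28565. All 6 P60 libraries, from 20240 to 22366, were below all 6 P25 libraries, and Dlg4 was the only member without overlap between the ages, a separation seen in 19.6% of all genes. PSD-95 transcripts at P60 stood at 77.9% of the P25 level. Dlg4 fell, with a log2 fold change of -0.41 ± 0.063 in WT mice (SE, adjusted p = 0.00999, limma), -0.31 ± 0.047 in KO mice (adjusted p = 0.00227, limma) and -0.36 ± 0.037 over both genotypes (adjusted p = 8.23e-06, limma). The WT call was lost without P60-WT replicate 2, the library with the most cerebellar signal (-0.38, adjusted p = 0.0506), without P25-WT replicate 1 (0.0555) without P60-WT replicate 3 (0.0682) and with eBayes without a trend (0.068, limma), where the adjusted p-values over all alternatives ran from 1.32e-05 to 0.0682. The call over both genotypes held in 12 of 12 fits without 1 library. Without both libraries with cerebellar markers, the change was -0.32 in KO mice (adjusted p = 0.00873) and -0.35 over both genotypes (adjusted p = 0.000133, limma). In bulk tissue, fewer cells of a type and less RNA per cell cannot be told apart.

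None of the other MAGUKs was called lower at P60. Dlg1, which encodes SAP97, had 4494, 4476 and 4678 normalized counts in P25-WT and 4626, 4570 and 4691 in P25-KO. It had 5230, 4688 and 5392 in P60-WT and 4914, 4619 and 5288 in P60-KO. The WT libraries did not overlap between ages while the KO libraries did. Over both genotypes Dlg1 rose by 0.13 ± 0.045 on the log2 scale (SE, adjusted p = 0.0378, limma). Without both libraries with cerebellar markers it rose by 0.16 (adjusted p = 0.0301, limma). Yet the call remained in only 5 of 12 fits without 1 library, and it was lost with eBayes without a trend (adjusted p = 0.0672, limma). Once the trend of each library on transcript length and GC content was removed, the value was -0.024 (adjusted p = 0.698, limma), within a range of 0.00797 to 0.698 over the alternatives, so the direction of Dlg1 depends on this step.

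Dlg2, which encodes PSD-93, ran from 11024 to 12457 normalized counts at P25 and from 11357 to 14298 at P60, where both extremes of P60 were WT libraries. Its log2 difference over both genotypes was 0.11 ± 0.051 (SE, adjusted p = 0.107, limma). The lowest P60 value was that of P60-WT replicate 2, and without this library the difference was 0.14 (adjusted p = 0.0280, limma). Without both libraries with cerebellar markers it was 0.15 (adjusted p = 0.0468, limma), whereas removing the length and GC trend gave -0.055. The adjusted p over all alternatives ran from 0.0258 to 0.508. Dlg3, which encodes SAP102, ran from 5133 to 6184 at P25 and from 5751 to 6235 at P60, with a log2 difference of 0.072 ± 0.046 (SE, adjusted p = 0.237, limma).

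The promoter windows of the 3 members called over both genotypes are shown because these genes, Dlg4, Camk2b and Dlg1, passed the test, Dlg1 with a direction that depends on the length and GC step. Each is the RefSeq window (GRCm38.p6) of 300 bases, 250 before and 50 after a transcript start, that lies nearest to the start of the longest principal transcript, written 5′ to 3′ on the gene's strand. Capitals mark CG dinucleotides. The windows are chr11:70018355-70018654 (plus strand) for Dlg4, chr11:6065699-6065998 (minus strand) for Camk2b and chr16:31663685-31663984 (plus strand) for Dlg1.
Dlg4: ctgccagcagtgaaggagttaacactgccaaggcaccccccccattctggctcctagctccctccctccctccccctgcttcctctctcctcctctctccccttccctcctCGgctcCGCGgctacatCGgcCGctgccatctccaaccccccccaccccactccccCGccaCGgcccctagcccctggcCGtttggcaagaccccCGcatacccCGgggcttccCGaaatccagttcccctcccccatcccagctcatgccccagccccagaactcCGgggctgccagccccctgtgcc
Camk2b: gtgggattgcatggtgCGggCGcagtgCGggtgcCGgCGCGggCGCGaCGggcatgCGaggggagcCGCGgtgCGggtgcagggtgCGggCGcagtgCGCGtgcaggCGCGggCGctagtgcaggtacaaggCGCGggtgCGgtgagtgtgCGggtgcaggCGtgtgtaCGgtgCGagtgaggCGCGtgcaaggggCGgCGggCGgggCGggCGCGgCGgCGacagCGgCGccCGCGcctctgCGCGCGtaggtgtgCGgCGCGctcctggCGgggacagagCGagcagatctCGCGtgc
Dlg1: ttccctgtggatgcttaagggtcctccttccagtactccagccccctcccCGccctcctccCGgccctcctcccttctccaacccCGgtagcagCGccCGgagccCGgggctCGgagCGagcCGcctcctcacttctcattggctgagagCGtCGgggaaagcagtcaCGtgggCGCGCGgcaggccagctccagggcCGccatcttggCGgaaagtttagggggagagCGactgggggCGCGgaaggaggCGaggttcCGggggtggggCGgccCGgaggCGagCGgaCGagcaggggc

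These 3 windows differed in CpG content. Dlg4 held 12 CpG in a window of 69.0% GC, Dlg1 held 27 CpG in 71.0% GC, and Camk2b held 51 CpG in 77.3% GC, more CpG than 99.3% of the 32851 windows of all genes, whose median was 7. The GC box GGGCGG, searched on both strands, was in the windows of Camk2b and Dlg1 but not in that of Dlg4, and 35.7% of all windows hold it. The letters TATAAA, searched likewise on both strands and found in 13.6% of all windows, were in none of the 3. The letters CCAAT, on either strand in 37.4% of all windows, were in the Dlg1 window only, on the strand opposite to the one printed. The 2 genes that fell thus shared none of the 3 motifs in these windows, which describes the letters and not the binding of a factor.

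Of the CaMKII subunits, Camk2b changed with age. It had 28241, 25133 and 28450 normalized counts in P25-WT and 28350, 29347 and 28371 in P25-KO. It had 25331, 24915 and 23853 in P60-WT and 24064, 24733 and 23780 in P60-KO. The KO libraries did not overlap between the ages, and in WT only the low P25-WT replicate 2 reached the P60 range. The beta subunit fell, with a log2 fold change of -0.25 ± 0.044 in KO mice (SE, adjusted p = 0.00485, limma) and -0.19 ± 0.040 over both genotypes (adjusted p = 0.00174, limma). Without both libraries with cerebellar markers the latter was -0.20 (adjusted p = 0.00861, limma). In WT mice the value was -0.14 ± 0.069 (adjusted p = 0.209, limma), and without P25-WT replicate 2 it was -0.20 (adjusted p = 0.0184), within a range of 0.00117 to 0.476 over the alternatives. The difference between the genotypes in this change was not called (interaction -0.10 ± 0.078, SE, adjusted p = 1, limma).

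Camk2a, the alpha subunit, ran from 71680 to 77546 normalized counts at P25 and from 66036 to 72814 at P60. Its libraries did not overlap between ages within either genotype, and the log2 difference over both was -0.082 ± 0.034 (SE, adjusted p = 0.0705, limma). It passed the threshold with sample quality weights (-0.081, adjusted p = 0.0393) and without P25-WT replicate 2 (-0.086, adjusted p = 0.0432, limma), and the adjusted p over all alternatives ran from 0.0393 to 0.385. Camk2g, the gamma subunit, had 7865 as its median at P25 and 7823 at P60, and its values spread more at P60, from 7460 to 8758, than at P25, from 7727 to 8009. Camk2d, the delta subunit, had a log2 difference of 0.004 ± 0.055 with a 95% interval from -0.11 to 0.12. The sign for Camk2d flipped in KO mice when all libraries were scaled to the same total (from -0.013 to 0.021), and over both genotypes it was -0.14 (adjusted p = 0.0284, limma) once the length and GC trend was removed, where its alternatives ran from 0.0233 to 0.980.

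Camk2n1, the CaMKII inhibitor, held 35993, 34831 and 35828 normalized counts in P60-WT and 38543, 35923 and 35987 in P60-KO, within the P25 range of 33521 to 51466. The P60 libraries were close together, while the P25-WT libraries had the largest spread of any member and group, with a coefficient of variation of 22.1%. The log2 difference in WT mice was -0.20 ± 0.13 (SE, adjusted p = 0.348, limma) and was -0.030 without P25-WT replicate 2 and -0.34 without P25-WT replicate 3, the highest and the lowest P25-WT library. Over both genotypes it was -0.14 ± 0.079 (adjusted p = 0.184), and -0.19 without P25-WT replicate 3 (adjusted p = 0.0429, limma). The adjusted p over all alternatives ran from 0.0485 to 0.791 in WT mice and from 0.0429 to 0.495 over both genotypes, the lowest in WT mice being that with sample quality weights.

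In sum over the 9 genes, 1 was called between the ages in WT mice (lower), where 8.65% of all genes were called, 3.66% higher and 4.99% lower. In KO mice 2 were called (both lower), against 20.7% of all genes, 9.37% higher and 11.3% lower. Over both genotypes 3 were called, 2 lower and 1 higher, which is 33.3% of the members against 37.6% of all genes, 18.3% higher and 19.3% lower, so the share of members called was near the background. The median log2 change over the members was 0.004, and that over all genes was 0.0037. Libraries did not overlap between the ages for 3 members in WT (Dlg1 higher, Dlg4 and Camk2a lower), against 36.0% of all genes, and for 3 members in KO (Dlg4, Camk2a and Camk2b lower), against 39.4%. With all libraries scaled to the same total, the calls over all genes shifted from 3219 higher and 3397 lower to 4038 and 2730 over both genotypes, from 644 and 877 to 991 and 681 in WT, and from 1649 and 1992 to 2108 and 1620 in KO. The sign of the change was the same in both genotypes for 7 of the 9 genes, and the exceptions, Camk2d and Camk2g, had values near 0 in KO mice.

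Ratios of 2 genes within a library do not depend on the scaling of that library, and 8 such tests were made, an age and a genotype effect for each of 4 ratios. The ratio of Dlg4 to Dlg3, of normalized counts, ran from 4.29 to 5.57 at P25 and from 3.46 to 3.73 at P60. All P60 libraries were below all P25 libraries, with a log2 difference of -0.43 (two-sided exact permutation within genotype, p = 0.005, adjusted p = 0.02), where 0.005 is the smallest p the design allows. The ratio of Dlg4 to Dlg1 ran from 5.66 to 6.39 at P25 and from 3.94 to 4.71 at P60, again without overlap, with a log2 difference of -0.49 (exact permutation p = 0.005, adjusted p = 0.02). Dlg4 is part of both ratios, so they are not independent of its own change.

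The ratio of Camk2a to Camk2b was 2.68 ± 0.17 at P25 and 2.89 ± 0.14 at P60 (SD, n = 6), and the ages overlapped (log2 difference 0.11, exact permutation p = 0.045, adjusted p = 0.12). The ratio of the inhibitor transcript Camk2n1 to Camk2a was 0.54 ± 0.08 at P25 and 0.51 ± 0.02 at P60 (SD, n = 6, exact permutation adjusted p = 0.845). Of the 4 genotype effects, with log2 differences from -0.057 to 0.035, none passed, and the smallest unadjusted exact permutation p was 0.25.

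**Figure D3:**
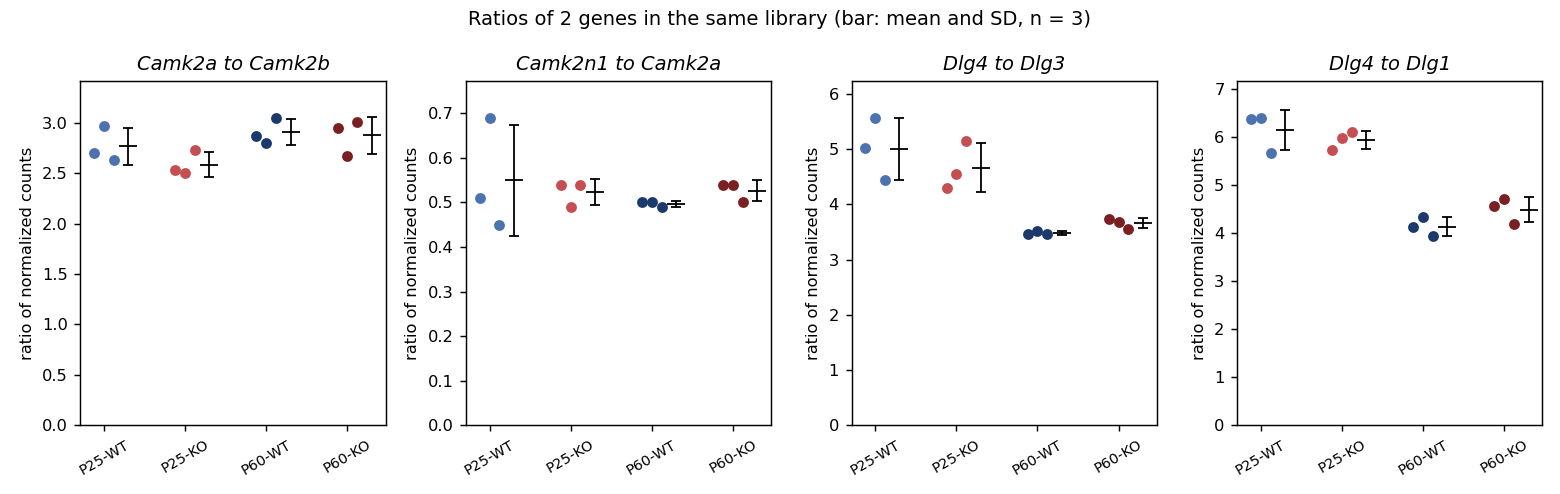
Ratios of normalized counts of 2 genes within each library (vertical axis, from 0), by group, with the mean and SD of 3 libraries as a bar. For Dlg4 to Dlg3 and Dlg4 to Dlg1 all P60 points are below all P25 points, while WT and KO overlap within P25. Within P60 the WT points of Dlg4 to Dlg3, from 3.46 to 3.52, are below the KO points, from 3.56 to 3.73.

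Expressed as shares of the summed MAGUK level per kb of the longest coding transcript, Dlg4 made up 56.7% ± 1.44 in P25-WT and 55.7% ± 1.17 in P25-KO, and 47.4% ± 1.35 in P60-WT and 49.1% ± 0.46 in P60-KO (SD, n = 3). The P25 shares, from 54.88% to 57.97%, did not overlap the P60 shares, from 45.97% to 49.42%. The share of Dlg2 was 19.2% ± 0.21 in P25-WT and 23.4% ± 1.52 in P60-WT, that of Dlg3 14.5% ± 1.28 and 17.4% ± 0.39, and that of Dlg1 9.53% ± 0.43 and 11.8% ± 0.21 (SD, n = 3). Per kb of all annotated exons, Dlg4 made up 50.1% in P25-WT and 40.9% in P60-WT, and Dlg3, with 22.8% and 26.6%, stood above Dlg2, with 17.1% and 20.3%. PSD-95 transcripts had the largest share at both ages with either length. In the CaMKII family, Camk2b made up 27.4% ± 1.23 in P25-WT, 28.7% ± 0.80 in P25-KO, 26.2% ± 0.73 in P60-WT and 26.4% ± 0.89 in P60-KO, and Camk2g 8.60% ± 0.25, 8.52% ± 0.27, 9.38% ± 0.72 and 9.31% ± 0.80 in the same order (SD, n = 3). Camk2a made up between 59.19% and 62.67% of the subunit level in the 12 libraries, Camk2b between 25.35% and 29.34%, Camk2g between 8.25% and 10.2%, and Camk2d between 2.41% and 3.19%, or between 1.01% and 1.35% per kb of all annotated exons.

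**Figure D4:**
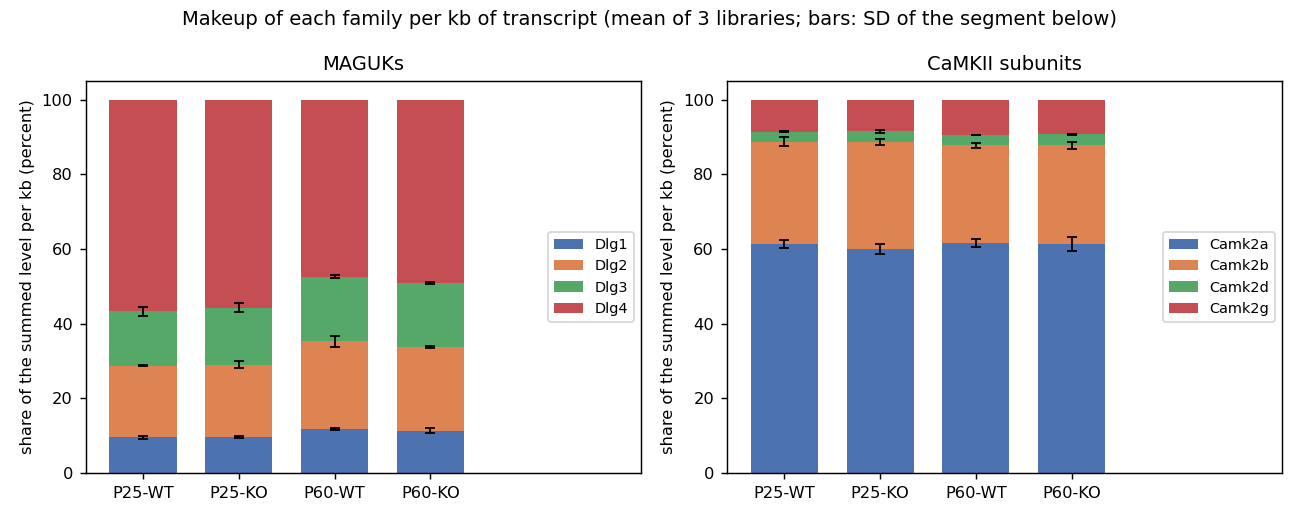
Mean share (percent) of each gene in the summed level per kb of its family, in the 4 groups of 3 libraries. The SD of a segment is drawn at its top, except for the uppermost segments, Dlg4 and Camk2g, which carry none. The Dlg4 segment shrinks from 56.7% to 47.4% in WT and from 55.7% to 49.1% in KO mice, while Camk2a stays between 59.19% and 62.67% in all libraries.

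A list of 48 genes of the same pathway was followed beside the members. It holds MAGUK binding proteins, enzymes that add palmitate to PSD-95 or remove it, other MAGUKs, calmodulins and their binding proteins, other calmodulin-dependent kinases and protein phosphatase 1 subunits. Between KO and WT, 0 of the 48 were called at P25 and 0 at P60 (limma), and 0 at P25 and 0 at P60 had an unadjusted p under 0.05. Between the ages, 11 were called in WT (5 higher, 6 lower), 19 in KO (7 higher, 12 lower) and 30 over both genotypes (15 higher, 15 lower). These are 22.9%, 39.6% and 62.5% of the list, against 8.65%, 20.7% and 37.6% of all genes. With the minimum mean raised to 50, 11.6%, 26.0% and 43.4% of the genes tested were called. The background thus depends on the level of the genes, and no background matched to the level of the list was tested. Over both genotypes the median change of -0.028 was close to the 0.0037 of all genes, so the list moved in both directions. All 11 genes called in WT were also called in KO in the same direction, and they were 57.9% of those called in KO. The WT count fell to 3 without the libraries with cerebellar markers and ranged from 0 (without P60-WT replicate 3) to 16 (without P25-WT replicate 2 or 3) when 1 library was left out.

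Among the partners that fell were proteins of calmodulin buffering and of the scaffold. Nrgn, which encodes the calmodulin-binding protein neurogranin, ran from 33249 to 40639 normalized counts at P25 and from 24598 to 27656 at P60, a log2 change of -0.45 ± 0.050 (SE, adjusted p = 1.46e-05, limma). Calm3, a calmodulin gene, fell with a log2 change of -0.42 ± 0.049 (adjusted p = 2.51e-05) and Pcp4, which encodes another calmodulin binder, with one of -0.50 ± 0.089 (adjusted p = 0.00067, limma). Calm2 had -0.098 ± 0.065 and was not called. With the length and GC trend removed, the change was -0.25 for Nrgn and -0.26 for Calm3, and both kept their call. Dlgap3, which encodes a scaffold that links PSD-95 to Shank proteins, ran from 13963 to 17370 at P25 and from 10759 to 12014 at P60 and changed by -0.45 ± 0.060. Its relative Dlgap1 had 0.14 ± 0.042 over both genotypes (adjusted p = 0.0167), but was not called in WT (adjusted p = 0.0991) or KO mice alone (adjusted p = 0.274, limma), and Dlgap2 and Dlgap4 had 0.14 ± 0.065 and -0.097 ± 0.040 without a call.

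Abhd17b and Abhd17a, which encode depalmitoylases, changed by -0.45 ± 0.054 and -0.65 ± 0.088 on the log2 scale (SE), and Zdhhc17, the only palmitoyltransferase gene in the list, by 0.38 ± 0.048. With the length and GC trend removed, the change of Zdhhc17 was 0.24. Abhd17b ran from 1057 to 1245 normalized counts at P25 and from 794.6 to 862.8 at P60, and Zdhhc17 from 2837 to 3314 and from 3817 to 4323, so neither overlapped between the ages. Abhd17c, with -0.14 ± 0.054, was not called (adjusted p = 0.0563, limma).

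Of the other calmodulin-dependent kinases in the list, some rose and some fell. Camkk1, which encodes an upstream kinase of CaMKI and CaMKIV, ran from 2694 to 3602 normalized counts at P25 and from 4347 to 4528 at P60, a log2 change of 0.44 ± 0.059 (SE). Camk1d, which encodes a CaMKI isoform, rose by 0.43 ± 0.048, and Sipa1l1, which encodes a PSD-95 binding protein of spines, rose by 0.35 ± 0.057. Camkk2 and Camkv, which encodes a relative of the kinases without kinase activity, fell, with -0.12 ± 0.035 (adjusted p = 0.0169) and -0.11 ± 0.034 (adjusted p = 0.026, limma). Camk1 had -0.040 ± 0.065, Camk1g 0.044 ± 0.095 and Camk4 0.17 ± 0.068, and these were not called. The 10 partner genes named by rule (all these except Calm2, Dlgap1, Dlgap2, Dlgap4, Abhd17c, Camkk2, Camkv, Camk1, Camk1g and Camk4, which were added for comparison after their values were seen) kept their call over both genotypes in 12 of 12 fits without 1 library.

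**Figure D5:**
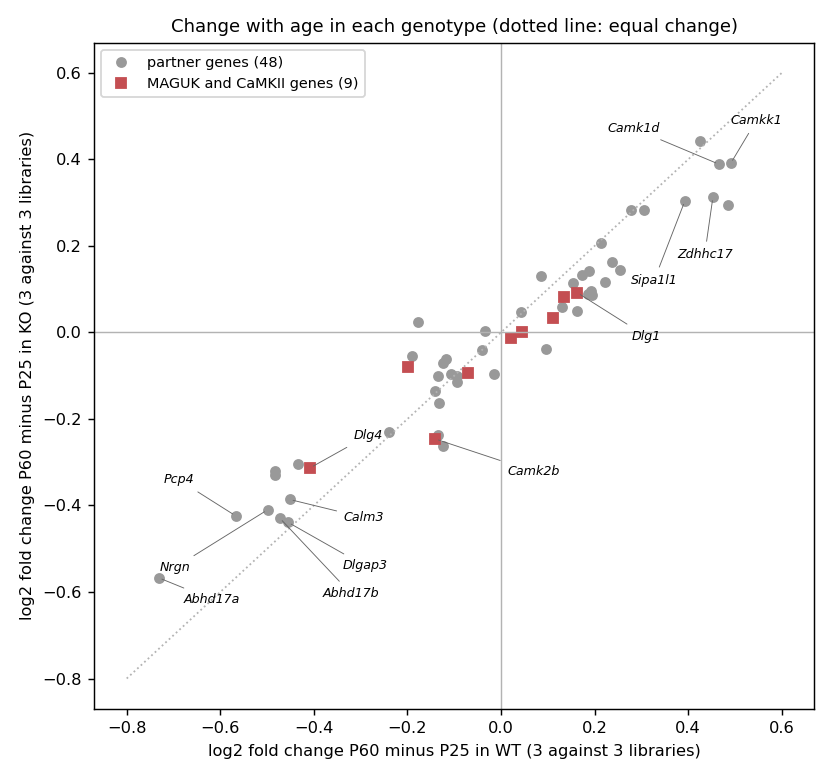
Log2 fold change from P25 to P60 in WT (horizontal) against KO mice (vertical) for the 9 MAGUK and CaMKII genes (squares) and the 48 partner genes (circles), each axis from its own 6 libraries. Of the 48 partners 45 and of the 9 members 7 had the same sign in both genotypes, and Dlg4 lies in the lower left, where both changes are negative, with Nrgn, Calm3 and Dlgap3.

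Genes whose values varied most like those of Dlg4 were sought over 17593 genes by the correlation of deviations from the 4 group means over 12 libraries, which share their library preparation and scaling. They were Ppp1r9b, which encodes the spine protein spinophilin (Pearson r = 0.955), Dlgap3 (r = 0.948) and Ncs1 (r = 0.934). For Camk2a they were Wdtc1 (r = 0.930), Nwd1 (r = 0.923) and Sfn (r = 0.912). Among pairs of members, r was highest for Dlg3 with Camk2d (0.736) and lowest for Camk2b with Camk2n1 (-0.830), and it was 0.681 for Dlg4 with Camk2a. These correlations are descriptions of 12 libraries and carry no test.

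Cell type markers moved with age in the same libraries. All 6 oligodendrocyte markers were lower at P60, and their summed level was 348138 to 449733 in the P25 libraries and 163186 to 187743 in the P60 libraries, with no marker at 0. Of 5 glutamatergic neuron markers, Slc17a7, the vesicular glutamate transporter of cortical neurons, fell with a log2 change of -0.33 ± 0.031 (SE, adjusted p = 3.44e-06, limma), 1 other fell and 1 rose. Slc17a6 and Tbr1 were not called, and the median change of the 5 was -0.076. Summed, these 5 ran from 45727 to 48469 at P25 and from 38673 to 39931 at P60, of which Slc17a7 held 37062 to 39257 and 29802 to 31303. Of 5 astrocyte markers 4 were lower, and of 5 striatal projection neuron markers 1 was lower. Among 6 GABA neuron markers Gad1 and Gad2 were higher, and Sst and Slc32a1 were lower. Of 5 microglia markers C1qa and Tmem119 were lower, and of 4 endothelial markers Flt1 was higher. The forebrain marker Emx1 fell by 0.49 ± 0.093 on the log2 scale (SE, adjusted p = 0.00103, limma). Between KO and WT, 0 of the markers tested were called at either age (limma), and an unadjusted p under 0.05 was reached by 0 of 41 markers at P25 and 5 of 43 at P60, against 440 of 17610 genes at P60. The 5 were Sst (0.21 ± 0.045 on the log2 scale, SE), Aqp4 and Gfap with positive values and Drd1 and Csf1r with negative values in KO, all with an adjusted p of 1 (limma). The part of these shifts in the change of Dlg4 and Camk2b was not tested.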

How the data were processed

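RNA from forebrain was sequenced in 12 libraries, 3 in each of 4 groups, which were taken from the sample titles. The authors quantified transcripts with Salmon 1.1.0 (GRCm38) and normalized them with DESeq2 1.26.0 in R 3.6.2, per the submitters' processing notes. The deposited values are a signal on a count scale, are not whole reads (0.0% whole within 1e-6), and were not given to a count model. A moderated linear model of log2(value + 1) was fitted by limma 3.58.1 under R 4.3.3 (eBayes with trend) to genes with a mean of at least 10, with Benjamini-Hochberg adjustment over all genes and a threshold of 0.05. Fold changes on this scale understate those of low genes. Ratios were tested by exact permutation. Symbols, positions, lengths and exons came from GENCODE M21, in which 19252 identifiers matched, and promoter windows from RefSeq. For 6 of the 9 members a window was matched. All members and the targeted gene were named. Partner and marker genes were named by rule, up to 4 called per direction and comparison, and 3 genes by likeness to each of Dlg4 and Camk2a. The members and lists were chosen with earlier results of these data known. The procedure was tested on simulated data. Alternatives changed the pseudocount, filter, scaling, variance model and libraries, added the replicate number as a block or removed length and GC trends. The fit without both libraries with cerebellar markers was added after the data had been seen.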

Additional observations from a re-analysis of the deposited data

How the results depend on the processing

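Over the alternatives, 638 of 675 values of the members kept their direction and their side of the threshold, 26 reversed, 3 lost and 8 gained a call. Without 1 library, 386 of 432 did so, 32 reversed, 10 lost and 4 gained a call. The fall of Dlg4 and of Camk2b over both genotypes and in KO mice kept its call in every fit run. The count of members called in WT mice (1) was 0 with eBayes without a trend, 0 without the libraries with cerebellar markers, 5 with sample quality weights, whose estimation stopped before convergence, and 0 to 2 without 1 library. Over both genotypes (3) it was 5 with the weights. The count of partners in WT (11) was 0 with eBayes without a trend, 33 with the weights, 18 with all 12 libraries in 1 fit, 6 with the replicate block and length and GC trend removed, 3 without the libraries with cerebellar markers, and 0 to 16 without 1 library. In KO (19) it was 9 with eBayes without a trend and 12 with the replicate block and the trend removed. The cause was not tested in these cases, apart from the smaller samples. Over all genes the WT count (1521) was 192 without the eBayes trend, 8250 with the weights, 3439 with all 12 libraries in 1 fit, 375 without the libraries with cerebellar markers and 122 to 2403 without 1 library, and in KO (3641) it was 1725 without the eBayes trend and 2323 without the libraries with cerebellar markers. Between genotypes 1 gene (Shank3) was called at each age. At P25 it was 57 genes with the weights, 0 without the eBayes trend, with the block or with the trend removed, and 0 to 8 without 1 library. At P60 it was 0 without the eBayes trend, 3 without the libraries with cerebellar markers and 1 to 3 without 1 library. Same-numbered libraries had correlations of their deviations from -0.072 to 0.166. Between P60-KO and P60-WT these were 0.06, 0.166 and 0.129, while libraries of different number ran from -0.128 to -0.005. The replicate block raised the genes with an unadjusted p under 0.05 between genotypes at P60 from 440 to 1017 (limma). The labels give only a number, and whether same-numbered libraries share a batch was not tested. With the replicate block the members called were 1 in WT, 2 in KO and 3 over both genotypes, and partners 13, 15 and 32. The ratios of Dlg4 to Dlg3 (-0.432) and Dlg4 to Dlg1 (-0.488) had an adjusted p of 0.1248 when ages were exchanged only within a replicate block, whose smallest unadjusted exact permutation p is 0.0312. Of the values that reversed in sign, that of Camk2d over both with the trend removed passed the threshold. With sample quality weights they were -0.03 for Dlg2 and -0.006 for Camk2d between genotypes at P25, -0.056 for Camk2d between ages in WT, -0.035 for Camk2d between ages over both, 0.002 for Camk2a and 0.008 for Camk2d in the interaction. With libraries scaled to the same total they were 0.007 for Camk2g between genotypes at P25, 0.021 for Camk2d between ages in KO. Without the libraries with cerebellar markers they were 0.039 for Camk2g between genotypes at P60, -0.009 for Camk2g between ages in WT, 0.02 for Camk2d between ages in KO, 0.045 for Camk2g in the interaction. With the length and GC trend removed, with or without the replicate block, they were -0.041 for Dlg2 and -0.125 for Camk2d between ages in WT, -0.052 for Dlg1 and -0.068 for Dlg2 between ages in KO, -0.024 for Dlg1, -0.055 for Dlg2 and -0.137 for Camk2d between ages over both. Camk2g between ages in KO and Dlg3 between genotypes at P60 had main values that rounded to 0.0. Their ranges without 1 library, -0.059 to 0.035 and -0.034 to 0.024, also crossed 0 and are left out of the following list. Without 1 library, the ranges that crossed 0 were -0.124 to 0.031 for Camk2n1 to Camk2a as age effect on the ratio, -0.044 to 0.111 for Camk2n1 to Camk2a and -0.056 to 0.025 for Dlg4 to Dlg3 as genotype effect on the ratio, -0.028 to 0.06 for Dlg2, -0.06 to 0.002 for Dlg4, -0.055 to 0.002 for Camk2a, -0.032 to 0.121 for Camk2d, -0.019 to 0.007 for Camk2g and -0.211 to 0.098 for Camk2n1 between genotypes at P25, -0.106 to 0.001 for Dlg1, -0.127 to 0.039 for Dlg2, -0.033 to 0.047 for Camk2d and -0.11 to 0.003 for Camk2g between genotypes at P60, -0.059 to 0.061 for Camk2d and -0.009 to 0.086 for Camk2g between ages in WT, -0.012 to 0.067 for Dlg3 and -0.087 to 0.041 for Camk2d between ages in KO, -0.034 to 0.03 for Camk2d and -0.004 to 0.041 for Camk2g between ages over both, -0.139 to 0.027 for Dlg2, -0.048 to 0.013 for Camk2a, -0.107 to 0.045 for Camk2d, -0.104 to 0.009 for Camk2g and -0.048 to 0.261 for Camk2n1 in the interaction.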
